A study of Homo sapiens with 18 samples.

Results

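Aminoacyl-tRNA synthetases are the enzymes that join each amino acid to its transfer RNA. The 35 genes described here were chosen by name and not by their values: 19 encode cytosolic enzymes or their subunits and 16 encode mitochondrial enzymes, of 62830 genes in the deposited table. All 35 were found in the table, and 34 reached 1 FPKM (fragments per kilobase of transcript, scaled to the mapped fragments of the library) in at least 3 of the 18 libraries and were tested. The exception was VARS2, the mitochondrial valine enzyme.

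Human cells keep separate sets of synthetases for translation in the cytosol and in mitochondria. Most mitochondrial enzymes have a gene of their own, whose symbol ends in 2, while the glycine and lysine enzymes of both compartments come from GARS1 and KARS1. Several cytosolic synthetases sit in a multisynthetase complex held together by the scaffold proteins AIMP1, AIMP2 and EEF1E1. Many genes for cytosolic synthetases are known targets of ATF4, the transcription factor of the integrated stress response, which binds a composite C/EBP-ATF element and also drives amino acid synthesis and import.

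MDA-MB-231, a long-established cell line from a human breast cancer of the triple-negative kind, was sequenced in 6 groups of 3 libraries with the same batch label. TRIM27 knockout (KO) cells and wild-type (WT) cells were each sequenced after olaparib, an inhibitor of PARP1 and PARP2 (2 µM, 24 h), after an siRNA against PARP1 (siPARP1, labelled 100 pM, 48 h), and without treatment. The study addressed how loss of TRIM27, loss of PARP1 and inhibition of its enzyme activity change gene expression linked to invasion and metastasis. The labels name no vehicle-treated or control-siRNA library, so effects of the solvent or of transfection cannot be told apart from those of olaparib or siPARP1. The labels do not say whether the KO line is 1 clone, where its edit lies, or whether libraries of the same group were grown as separate cultures. Thus p-values measure the spread between these libraries, which may be technical.

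A promoter search shows which members carry the letters of the C/EBP-ATF element. RefSeq promoters on GRCh38.p14 (250 bases before to 50 after each start) were matched for 30 of the 35 members. The letters TGATGNAA were found on either strand in 7 of these 30 promoters (23.3%), against 3.67% of 27305 promoters in the same table. Of the 7, 6 belong to the 16 cytosolic members with a promoter and 1, YARS2, to the 14 mitochondrial members. The 7 matches are shown because the members that carry them are set against the others after the olaparib values. Each is printed along the gene's own strand with the 30 bases before it and up to 30 bases after it, ending at the start where the match lies before it. Capitals mark the match, and each of the 6 cytosolic ones is TGATGCAA or its reverse complement TTGCATCA.
AARS1: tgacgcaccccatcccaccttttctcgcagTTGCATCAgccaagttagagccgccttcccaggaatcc
CARS1: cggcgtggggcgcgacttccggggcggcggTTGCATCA
IARS1: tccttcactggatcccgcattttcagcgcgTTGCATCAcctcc
MARS1: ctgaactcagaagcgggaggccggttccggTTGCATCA
NARS1: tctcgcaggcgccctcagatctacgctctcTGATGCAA
TARS1: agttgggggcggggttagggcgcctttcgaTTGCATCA
YARS2: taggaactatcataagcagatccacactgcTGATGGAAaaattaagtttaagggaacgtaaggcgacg

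These stretches lie at chr16:70289656-70289723 (minus strand, AARS1), chr11:3057418-3057455 (minus, CARS1), chr9:92293698-92293740 (minus, IARS1), chr12:57488034-57488071 (plus, MARS1), chr18:57621815-57621852 (minus, NARS1), chr5:33440937-33440974 (plus, TARS1) and chr12:32756057-32756124 (minus, YARS2). With -1 as the last base before the start, the matches begin at -187 in AARS1, -2 in CARS1, -13 in IARS1, -4 in MARS1 and -197 in YARS2. In TARS1 and NARS1 they begin at 3 and 15 bases counted from the start itself. The E-box letters CACGTG were found in the promoters of IARS1, CARS2, EARS2 and MARS2, or 13.3% of the 30 against 7.43% of all. A match is a description of the letters in this window and was not tested as a binding site.

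Absolute depth is unknown because the files used hold FPKM and no counts. The steps in low values put relative depth at 0.749 to 1.237 times that of WT untreated library 1. TRIM27 averaged 0.623 ± 0.066 FPKM in KO and 1.45 ± 0.24 FPKM in WT untreated cells (SD, n = 3 each). PARP1 averaged 9.25 ± 0.47 FPKM in KO and 10.7 ± 0.9 FPKM in WT cells under siPARP1, against 55.2 ± 3.7 FPKM in KO and 56.2 ± 2.6 FPKM in WT untreated cells. The line's markers VIM, CD44, AXL and KRT18 were high in all 18 libraries. ZEB1, listed with them, was lower, at 3.644 to 11.01 FPKM. Of the other cell types' markers, CD3E and MS4A1 were listed at 0 in 18 libraries. PTPRC reached at most 0.0476 FPKM, PECAM1 at most 0.01 FPKM and ESR1 at most 0.266 FPKM. CD14 reached up to 1.074 FPKM, PDGFRB up to 1.384 FPKM and LUM up to 1.101 FPKM. GATA3 (13.0 to 31.6 FPKM), CD68 (4.03 to 24.1 FPKM) and ACTA2 (16.5 to 117.3 FPKM) were present, and they moved with treatment. ACTA2 rose under olaparib, with log2 changes of 2.35 in KO and 2.44 in WT cells, and under siPARP1 it had a change of 0.01 in KO cells (adjusted p = 0.88) and fell in WT cells (-0.25). CD68 fell under olaparib (-0.83 in KO and -0.77 in WT cells), and under siPARP1 it had a change of 0.19 in KO cells (adjusted p = 0.0908) and rose in WT cells (0.96). GATA3 rose under olaparib in WT cells (0.61) and fell under siPARP1 in KO cells (-0.53). The part of these genes in the synthetase changes was not tested. In these bulk libraries, fewer cells of a kind and less RNA per cell cannot be told apart.

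Cytosolic synthetase RNAs were more abundant than mitochondrial ones. The median over genes of the mean of 18 libraries was 63.9 FPKM for the 19 cytosolic and 8.83 FPKM for the 16 mitochondrial members. SARS1, the serine enzyme, was highest at 136.6 FPKM and RARS1, the arginine enzyme, next at 121.9 FPKM. The ranges of these 2 genes over the 18 libraries overlapped, 126.1 to 144.3 FPKM for SARS1 and 85.0 to 164.4 FPKM for RARS1. IARS2, the mitochondrial isoleucine enzyme, was the highest mitochondrial member at 62.4 FPKM and lay above IARS1, its cytosolic counterpart, at 53.7 FPKM. CARS2, the mitochondrial cysteine enzyme, likewise averaged 27.9 FPKM and CARS1 21.6 FPKM. At the low end were EARS2 (2.99 FPKM), which charges mitochondrial tRNA with glutamate, and PARS2 (2.40 FPKM), the mitochondrial proline enzyme.

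**Figure D1:**
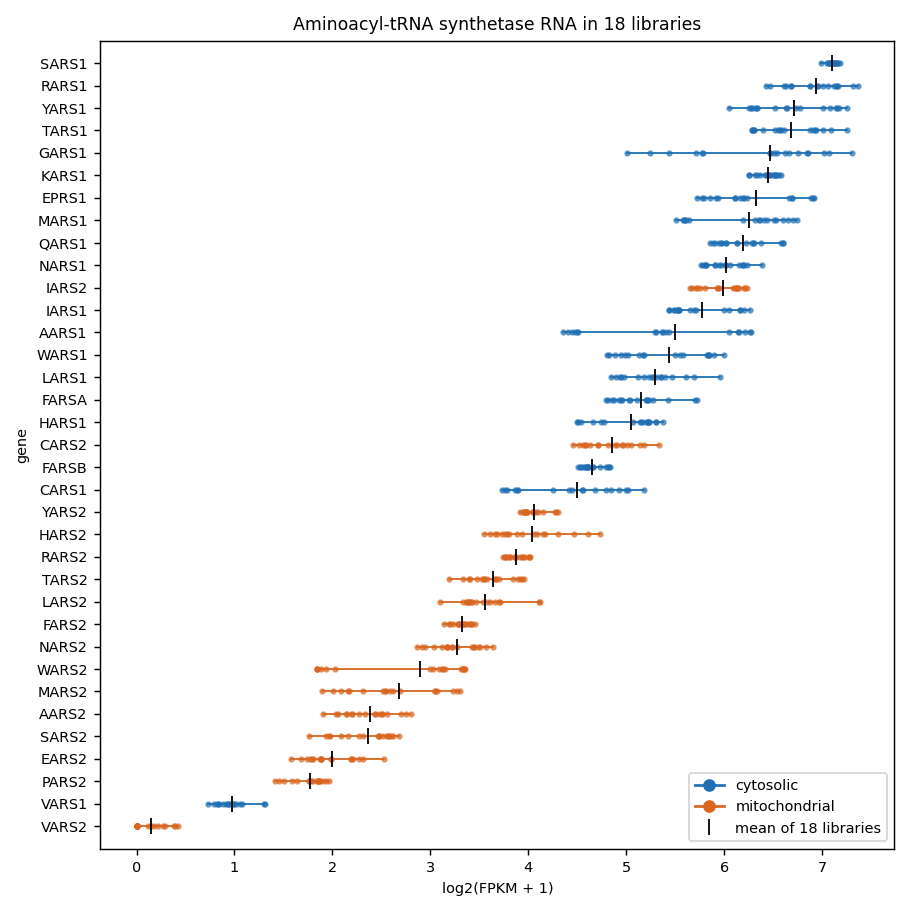
RNA level of the 35 synthetases on the log2(FPKM + 1) scale, with a point for each of the 18 libraries, a line over their range and a black tick at their mean. SARS1 spans a narrow range, GARS1, AARS1 and WARS2 wide ones, and VARS1 and VARS2 lie at the bottom.

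VARS1, the single cytosolic valine enzyme, had 0.655 to 1.48 FPKM and reached 1 FPKM in 5 of 18 libraries, far below the other 18 cytosolic members, of which CARS1 was the lowest. VARS2 had at most 0.344 FPKM and was listed at 0 in 9 of 18 libraries. Both genes lie on chromosome 6, VARS1 at 31777518 to 31795953 and VARS2 at 30908242 to 30926459 (GENCODE 29, GRCh38). Of the 185 protein-coding genes between 28000000 and 34000000 on that chromosome, TRIM27 among them, 38.9% passed the filter on low values and the median mean level was 0.372 FPKM. On the rest of chromosome 6 these values were 58.2% and 2.28 FPKM, and in the rest of the genome 60.2% and 2.80 FPKM. Why values in this interval were low was not tested, so the valine enzymes' level in the cells is uncertain. VARS1 was not called in any comparison.

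The summed FPKM of the 19 cytosolic members was lower after both treatments. It averaged 1015 ± 16 FPKM in KO and 1005 ± 16 FPKM in WT cells under olaparib, and 1245 ± 9 FPKM in KO and 1254 ± 41 FPKM in WT cells under siPARP1. In untreated cells it averaged 1411 ± 40 FPKM in KO and 1392 ± 13 FPKM in WT (SD, n = 3 each). As a percentage of the summed FPKM of annotated genes, these sums were 0.224% in KO and 0.221% in WT cells under olaparib, 0.261% in KO and 0.263% in WT cells under siPARP1, and 0.330% in KO and 0.319% in WT untreated cells. The mitochondrial sum averaged 219 ± 3 FPKM in KO and 208 ± 4 FPKM in WT cells under olaparib, 196 ± 5 FPKM in KO and 197 ± 1 FPKM in WT cells under siPARP1, and 196 ± 1 FPKM in KO and 188 ± 4 FPKM in WT untreated cells. Sums are led by the abundant genes and are given as a description.

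Under olaparib, a large part of the cytosolic set fell, and the mitochondrial set mostly did not. In KO cells 10 of 19 cytosolic members fell and 3 rose (median log2 change -0.30), while 1 of 15 tested mitochondrial members fell and 7 rose (median 0.10). In WT cells 12 cytosolic members fell and 2 rose (median -0.47), while 3 mitochondrial members fell and 6 rose (median 0.15). A member is said to have risen or fallen where limma, fitted on log2(FPKM + 1) over 15764 genes, gave a Benjamini-Hochberg adjusted p under 0.05. That holds for 21 of 34 members in KO and 23 of 34 in WT cells, against 47.2% of all genes in KO and 45.4% in WT. Of all genes, 25.2% rose and 22% fell in KO cells and 24.9% rose and 20.4% fell in WT cells, and the median change of all genes was 0.03 in both. Olaparib and siPARP1 are set against the same untreated libraries. After rescaling to TPM, in which annotated genes have the same sum in every library, 7 members rose and 15 fell in KO cells, against 10 and 11 as deposited, and the WT counts were 8 higher and 15 lower on both scales.

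**Figure D2:**
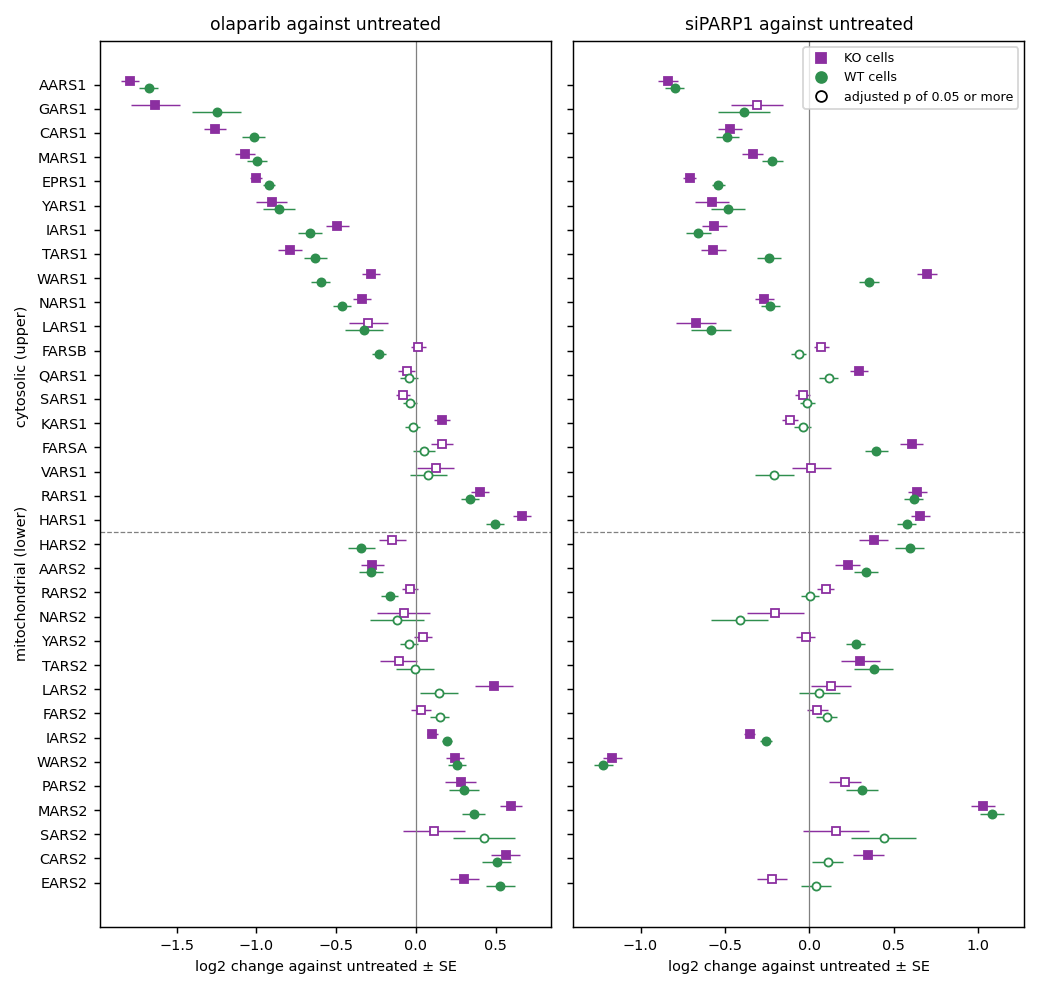
Log2 change with SE of the 34 tested members after olaparib (left) and siPARP1 (right) against untreated cells, on the log2(FPKM + 1) scale, with cytosolic members above the dashed line and mitochondrial members below. Squares are KO and circles WT cells, and open symbols have an adjusted p of 0.05 or more; AARS1 lies lowest under olaparib, and WARS2 under siPARP1.

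AARS1, the alanine enzyme, fell most. It had 19.4, 20.2 and 20.8 FPKM in KO cells under olaparib, against 75.9, 76.2 and 65.1 FPKM in untreated KO cells. It had 21.7, 21.6 and 21.2 FPKM in WT cells under olaparib, against 69.8, 69.8 and 73.3 FPKM in untreated WT cells. The groups did not overlap, and the log2 change was -1.79 ± 0.06 in KO cells (SE, adjusted p = 9.87e-12) and -1.68 ± 0.06 in WT cells (adjusted p = 1.93e-11).

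GARS1, which serves glycine in both compartments, followed. It had 31.2, 36.8 and 42.4 FPKM in KO cells under olaparib, against 128.7, 133.1 and 90.2 FPKM in untreated KO cells. In WT cells it had 51.4, 53.5 and 54.0 FPKM under olaparib, against 156.9, 115.2 and 114.2 FPKM without treatment. The groups did not overlap, although the untreated libraries were spread widely (log2 change -1.64 ± 0.15 in KO and -1.25 ± 0.15 in WT cells). From summed transcripts, which held 10.1% of the GARS1 gene value, the change in KO cells was -1.08 (adjusted p = 0.216). KARS1, the other enzyme shared by both compartments, did not follow GARS1: its log2 change was 0.17 in KO cells (adjusted p = 0.0132) and -0.02 in WT cells (adjusted p = 0.765). The KO call was lost after rescaling to TPM (0.08, adjusted p = 0.165), without KO untreated library 1 (0.12, adjusted p = 0.0687) and in a fit of the compared groups alone (adjusted p = 0.0746).

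CARS1, the cysteine enzyme, had 12.7, 13.6 and 12.6 FPKM in KO cells under olaparib, against 31.4, 35.2 and 30.9 FPKM in untreated KO cells. It had 13.8, 13.9 and 12.3 FPKM in WT cells under olaparib, against 29.5, 27.7 and 26.8 FPKM without treatment. All 6 treated libraries lay below all 6 untreated ones, with log2 changes of -1.26 ± 0.07 in KO and -1.02 ± 0.07 in WT cells.
MARS1, the methionine enzyme that supplies both initiation and elongation, had 47.0, 46.8 and 44.5 FPKM in KO cells under olaparib, against 99.4, 103.0 and 91.4 FPKM without treatment. In WT cells it had 47.9, 49.0 and 47.6 FPKM under olaparib, against 90.3, 96.3 and 105.8 FPKM without treatment. Treated cells had 47.1% of the untreated mean in KO and 49.4% in WT, with no overlap (log2 change -1.07 in KO and -0.999 in WT cells). MARS1 overlaps 982 bases of DDIT3, a stress-response gene on the opposite strand, which itself had a log2 change of -1.20 in KO and -0.46 in WT cells. No source used here gives the strand setting of the counting, so reads from the 2 genes cannot be told apart there.

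EPRS1, the joined glutamate and proline enzyme and part of the multisynthetase complex, averaged 58.8 ± 1.7 FPKM in KO and 53.3 ± 1.3 FPKM in WT cells under olaparib, against 118.8 ± 1.0 FPKM in KO and 101.7 ± 1.4 FPKM in WT untreated cells. YARS1, the tyrosine enzyme, averaged 77.1 ± 1.7 FPKM in KO and 73.8 ± 7.6 FPKM in WT cells under olaparib, against 145.2 ± 5.6 FPKM in KO and 134.4 ± 6.2 FPKM in WT untreated cells. Neither gene's treated and untreated libraries overlapped. TARS1 (threonine), IARS1 (isoleucine), NARS1 (asparagine) and WARS1 (tryptophan) also fell in both genotypes, with log2 changes of -0.79 to -0.28 in KO and -0.66 to -0.47 in WT cells. LARS1, the leucine enzyme that also senses leucine for mTORC1, had a log2 change of -0.30 in KO cells (adjusted p = 0.0558) and -0.32 in WT cells (adjusted p = 0.0409). The WT call rests on untreated library 2 at 61.1 FPKM, against 43.3 and 39.9 FPKM in libraries 1 and 3: without it the change was -0.14 (adjusted p = 0.194). Leaving out any WT olaparib library also ended the LARS1 call in WT cells, with adjusted p of 0.0656, 0.0859 and 0.0978. FARSB, the beta subunit of the phenylalanine enzyme, fell in WT cells (-0.23) and had a change of 0.02 in KO cells (adjusted p = 0.792).

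HARS1 (histidine) and RARS1 (arginine) rose in both genotypes. HARS1 averaged 35.3 ± 1.2 FPKM in KO and 36.3 ± 0.3 FPKM in WT cells under olaparib, against 21.9 ± 0.4 FPKM in KO and 25.5 ± 1.1 FPKM in WT untreated cells. The log2 change was 0.67 in KO and 0.50 in WT cells, and the libraries did not overlap. RARS1 had log2 changes of 0.40 in KO and 0.34 in WT cells. SARS1, QARS1 (glutamine) and FARSA, the alpha subunit of the phenylalanine enzyme, did not pass the test in either genotype, with changes of -0.08 to 0.17 in KO and -0.04 to 0.05 in WT cells.

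**Figure D3:**
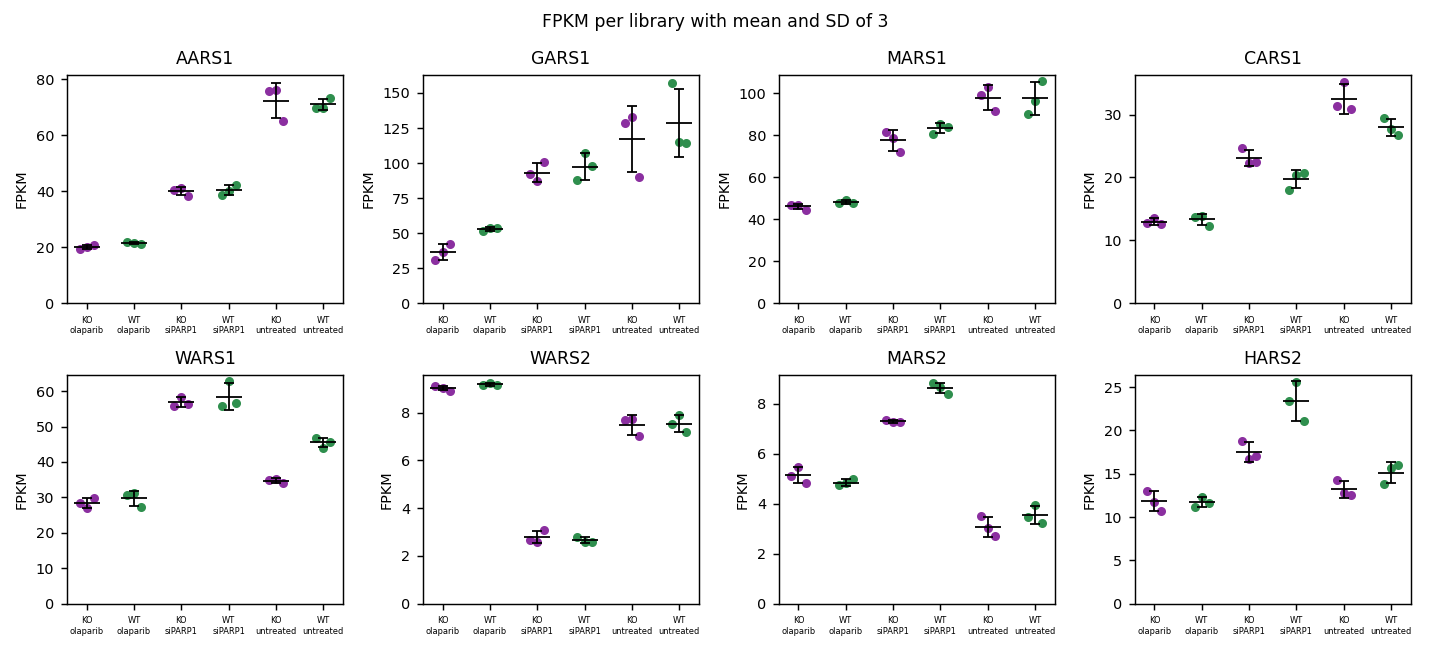
FPKM of 8 synthetases in each of the 18 libraries, in groups of 3 with the mean and SD in black, KO cells in purple and WT cells in green. AARS1, GARS1, MARS1 and CARS1 are lowest under olaparib, WARS2 is lowest under siPARP1, and WARS1, MARS2 and HARS2 are highest under siPARP1.

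The 6 cytosolic members with TGATGNAA in the promoter all fell under olaparib in KO and in WT cells (log2 changes -1.79 to -0.34 in KO and -1.68 to -0.47 in WT) and under siPARP1 (-0.84 to -0.27 in KO and -0.80 to -0.22 in WT). Of the 10 cytosolic members whose promoter lacked the letters, 3 fell and 3 rose under olaparib in KO cells. In WT cells 4 fell and 2 rose. Under siPARP1 1 of the 10 fell and 5 rose in KO cells, and 2 fell and 4 rose in WT cells. Of all genes, 22% fell and 25.2% rose under olaparib in KO cells, and 20.4% and 24.9% in WT cells. Under siPARP1 these shares were 22.8% and 31.9% in KO and 22.3% and 29.5% in WT cells. The fallers without the letters under olaparib included GARS1 and EPRS1, so a fall also occurred where the window held none. YARS2, the mitochondrial tyrosine enzyme with TGATGGAA, did not fall under either treatment. The letters were chosen with results of these data known, so the split is a description.

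Genes that fell were found inside and outside the multisynthetase complex. Under olaparib 3 of its 7 synthetases fell and 2 rose in KO cells, and 4 fell and 1 rose in WT cells. Among the 12 cytosolic members outside it, 7 fell and 1 rose in KO cells, and 8 fell and 1 rose in WT cells. Of the scaffold proteins, AIMP2 rose under olaparib (log2 change 0.61 in KO and 0.49 in WT cells), while AIMP1 and EEF1E1 did not pass the test. Under siPARP1 AIMP2 rose in KO cells (0.26) and EEF1E1 in WT cells (0.50). By the fold of the catalytic domain, 5 of 9 class I and 4 of 9 class II cytosolic members fell in KO cells, and 6 of 9 and 5 of 9 in WT cells.

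The mitochondrial members that rose under olaparib in both genotypes were CARS2, EARS2, IARS2, MARS2, PARS2 and WARS2. CARS2 had 31.2, 32.1 and 39.2 FPKM in KO cells under olaparib, against 25.3, 21.0 and 21.9 FPKM in untreated KO cells. It had 34.3, 30.3 and 35.4 FPKM in WT cells under olaparib, against 23.7, 23.1 and 22.6 FPKM in untreated WT cells. Neither pair of groups overlapped (log2 change 0.56 in KO and 0.51 in WT cells). MARS2, the mitochondrial methionine enzyme, rose by 0.60 in KO and 0.36 in WT cells, and EARS2 by 0.30 in KO and 0.53 in WT cells. AARS2 (alanine) fell in both genotypes, by a log2 change of -0.27 in KO and -0.28 in WT cells. HARS2, the mitochondrial histidine enzyme, had 13.0, 11.8 and 10.7 FPKM in KO cells under olaparib, against 14.3, 12.8 and 12.6 FPKM in untreated KO cells, which overlap (-0.15, adjusted p = 0.167). It fell in WT cells (-0.34), with 11.2, 12.3 and 11.6 FPKM under olaparib against 13.8, 15.6 and 16.0 FPKM without treatment. The IARS2 rise was small, 0.10 in KO and 0.19 in WT cells, and in KO cells it was not called after rescaling to TPM (0.02, adjusted p = 0.659) or by median-of-ratios scaling (0.08, adjusted p = 0.0725). PARS2 rose by 0.28 in KO and 0.30 in WT cells at under 3 FPKM, and its call was lost without KO untreated library 2 (adjusted p = 0.115) or 3 (0.0968), KO olaparib library 2 (0.0639) or 3 (0.0549), WT untreated library 3 (0.0843) or WT olaparib library 1 (0.0699).

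Under siPARP1 cytosolic members again fell more often than they rose, and the members that moved furthest, WARS2 and MARS2, were mitochondrial. In KO cells 9 of 19 cytosolic members fell and 5 rose (median -0.27), and 2 of 15 mitochondrial members fell and 5 rose (median 0.13); after rescaling to TPM the mitochondrial counts were 4 lower and 2 higher (median -0.01). In WT cells 10 cytosolic members fell and 4 rose (median -0.22), and 2 mitochondrial members fell and 6 rose (median 0.11); after TPM rescaling the mitochondrial counts were 3 lower and 4 higher (median -0.01). Of all 34 tested members, 21 were called in KO and 22 in WT cells, against 54.7% of all genes in KO (31.9% higher and 22.8% lower) and 51.7% in WT (29.5% higher and 22.3% lower). The median change of all genes was 0.07 in both genotypes. Of the members called in KO cells, 10 rose and 11 fell, and 7 rose and 16 fell after TPM rescaling. Of those called in WT cells, 10 rose and 12 fell, and 8 rose and 16 fell after TPM rescaling.

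WARS2, the mitochondrial tryptophan enzyme, fell furthest. It had 2.68, 2.59 and 3.07 FPKM in KO cells under siPARP1, against 7.72, 7.73 and 7.005 FPKM in untreated KO cells. It had 2.81, 2.58 and 2.59 FPKM in WT cells under siPARP1, against 7.53, 7.90 and 7.18 FPKM in untreated WT cells. The knockdown cells had 37.2% of the untreated mean in KO and 35.3% in WT, with no overlap, and the log2 change was -1.17 ± 0.06 in KO cells (SE, adjusted p = 3.42e-10) and -1.22 ± 0.06 in WT cells (adjusted p = 3.07e-10). Under olaparib WARS2 went the other way and had 9.11, 9.05 and 8.93 FPKM in KO and 9.15, 9.25 and 9.17 FPKM in WT cells, above every untreated library (log2 change 0.24 in KO and 0.26 in WT cells). WARS2-AS1, on the opposite strand with 276 shared bases, rose under siPARP1 by 0.62 in KO and 0.42 in WT cells.

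WARS1, the cytosolic tryptophan enzyme and an interferon-induced gene, moved opposite to WARS2 under each treatment. It had 55.9, 58.5 and 56.3 FPKM in KO cells under siPARP1, against 34.9, 35.3 and 34.0 FPKM in untreated KO cells. It had 55.9, 62.8 and 56.7 FPKM in WT cells under siPARP1, against 46.8, 44.1 and 45.7 FPKM in untreated WT cells. The log2 change under siPARP1 was 0.70 ± 0.06 in KO and 0.35 ± 0.06 in WT cells, with no overlap, and under olaparib -0.28 in KO and -0.60 in WT cells. Other interferon-induced genes moved in both directions under siPARP1. Of 9 tested of a list of 12, 1 rose and 6 fell in KO cells (of all genes 31.9% rose and 22.8% fell), and 2 rose and 3 fell in WT cells (of all genes 29.5% rose and 22.3% fell). IFIT1 fell in KO cells (-1.73) and had a change of 0.11 in WT cells (adjusted p = 0.08). IFIT3 fell in both genotypes (-1.62 in KO and -0.32 in WT cells). IFIT2 fell in KO cells (-1.62), where untreated libraries were spread widely, and had a change of -1.18 in WT cells (adjusted p = 0.131). ISG15 rose by 0.76 in KO and 1.08 in WT cells and IFI35 by 0.17 in WT cells, whereas IFI35 fell by 0.40 in KO cells and IRF1 fell by 1.49 in KO and 1.09 in WT cells on the log2 scale.

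MARS2 rose to 237.5% of the untreated mean in KO and 242.7% in WT cells under siPARP1. It had 7.37, 7.27 and 7.28 FPKM in KO cells under siPARP1, against 3.50, 3.02 and 2.71 FPKM in untreated KO cells. It had 8.84, 8.67 and 8.41 FPKM in WT cells under siPARP1, against 3.47, 3.97 and 3.25 FPKM in untreated WT cells. The groups did not overlap (log2 change 1.03 ± 0.07 in KO and 1.08 ± 0.07 in WT cells), and MARS1 fell in the same libraries by 0.33 in KO and 0.22 in WT cells on the log2 scale.

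HARS1 and HARS2, neighbouring genes for the cytosolic and mitochondrial histidine enzymes that are read from opposite strands, both rose under siPARP1. HARS1 had log2 changes of 0.66 in KO and 0.58 in WT cells. HARS2 had 18.8, 16.7 and 17.0 FPKM in KO cells under siPARP1, against 14.3, 12.8 and 12.6 FPKM in untreated KO cells. In WT cells it had 23.4, 25.7 and 21.1 FPKM under siPARP1, against 13.8, 15.6 and 16.0 FPKM without treatment. Neither pair overlapped (log2 change 0.38 in KO and 0.60 in WT cells). HARS2 shares 437 bases with HARS1 and 639 bases with ZMAT2 on its own strand, a gene with a mean of 53.9 FPKM, and reads there cannot be assigned to 1 gene with certainty. ZMAT2 had a log2 change under siPARP1 of -0.03 in KO and 0.26 in WT cells.

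AARS1 fell under siPARP1 too, by less than under olaparib. It had 40.4, 41.3 and 38.4 FPKM in KO and 38.6, 40.2 and 42.4 FPKM in WT cells, below every untreated library (log2 change -0.84 in KO and -0.80 in WT cells). Summed over listed transcripts, which held 6.23% of the AARS1 gene value, the WT change was -0.002 (adjusted p = 0.997). EPRS1, LARS1, IARS1, TARS1, YARS1, CARS1, MARS1 and NARS1 fell in both genotypes, with log2 changes of -0.71 to -0.27 in KO and -0.66 to -0.22 in WT cells. From summed transcripts, which held 8.83% of the IARS1 gene value, the IARS1 change was -0.21 in KO cells (adjusted p = 0.753) and -0.43 in WT cells (adjusted p = 0.49). The TARS1 call in WT cells was lost without siPARP1 library 1 (adjusted p = 0.0714) or 3 (0.0605). GARS1 had a change of -0.31 in KO cells (adjusted p = 0.103) and -0.39 in WT cells (adjusted p = 0.0476). The GARS1 call in WT cells did not hold once untreated library 1 was left out (-0.24, adjusted p = 0.222), nor without siPARP1 library 1 (0.154) or 3 (0.0881).

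RARS1 and FARSA rose under siPARP1 in both genotypes. RARS1 averaged 140.0 ± 1.9 FPKM in KO and 155.0 ± 11.3 FPKM in WT cells under siPARP1, against 89.6 ± 6.0 FPKM in KO and 100.4 ± 2.1 FPKM in WT untreated cells. FARSA averaged 48.3 ± 5.4 FPKM in KO and 36.8 ± 0.7 FPKM in WT cells under siPARP1, against 31.2 ± 1.1 FPKM in KO and 27.7 ± 1.5 FPKM in WT untreated cells. FARSB, which joins FARSA in 1 enzyme, did not pass the test (0.07 in KO cells, adjusted p = 0.203, and -0.06 in WT cells, adjusted p = 0.261). SARS1 stayed within 126.1 to 144.3 FPKM in all 18 libraries and was called in none of the 11 comparisons.

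IARS2 fell under siPARP1, to 54.9, 51.6 and 52.8 FPKM in KO cells, against 69.0, 67.1 and 68.2 FPKM in untreated KO cells. In WT cells it fell to 51.5, 49.3 and 50.01 FPKM, against 59.8, 60.2 and 60.8 FPKM without treatment. The groups did not overlap (log2 change -0.35 in KO and -0.26 in WT cells). AARS2 rose under siPARP1 by 0.23 in KO and 0.34 in WT cells, the opposite of its fall under olaparib, but the KO call was lost after rescaling to TPM (0.11, adjusted p = 0.288), by median-of-ratios scaling (0.101) and without KO untreated library 3 (0.0756) or KO siPARP1 library 3 (0.0505). TARS2, the mitochondrial threonine enzyme, rose by 0.30 in KO and 0.38 in WT cells. Its KO call was lost after rescaling to TPM (0.17, adjusted p = 0.275), by median-of-ratios scaling (0.22, adjusted p = 0.118) and without any 1 of the 6 KO libraries. Its WT call was lost after rescaling to TPM (0.27, adjusted p = 0.0772) and without the third untreated library (adjusted p = 0.0617) or the third siPARP1 library (0.0564). CARS2 rose in KO cells (0.35, and 0.20 with adjusted p = 0.0847 after rescaling to TPM) and had a change of 0.11 in WT cells (adjusted p = 0.341). PARS2 rose in WT cells (0.31), a call lost after rescaling to TPM (adjusted p = 0.077) and without WT untreated library 3 (adjusted p = 0.066) or siPARP1 library 3 (0.0595).

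**Figure D4:**
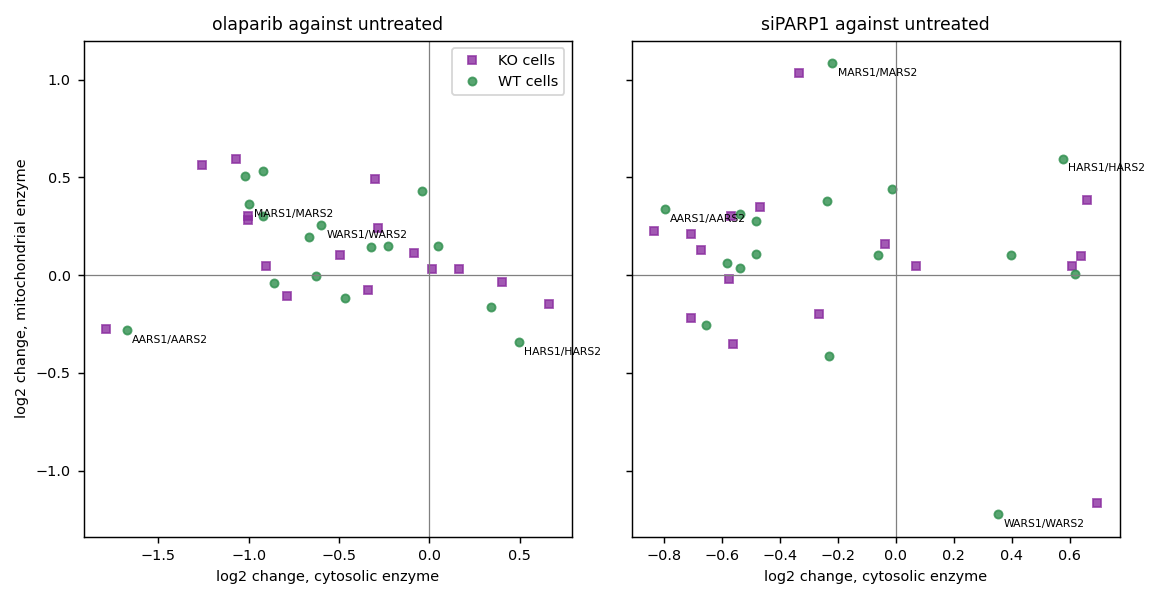
Log2 change of the cytosolic enzyme (horizontal) against that of its mitochondrial counterpart (vertical) for 16 pairs, under olaparib (left) and siPARP1 (right) against untreated cells; squares are KO and circles WT cells, and WT points of 4 pairs are named. Most olaparib points lie left of 0 with smaller vertical values, and under siPARP1 the MARS1/MARS2 and WARS1/WARS2 pairs lie far above and far below 0.

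Where both the cytosolic and the mitochondrial enzyme for an amino acid were called after a treatment, their directions were more often opposite than the same. EPRS1 was paired with EARS2 and with PARS2, and FARSA and FARSB were each paired with FARS2, giving 16 pairs without the valine enzymes. Under olaparib both genes of a pair were called in opposite directions in 6 pairs in KO and 8 pairs in WT cells, and in the same direction in 1 pair in each, AARS1 with AARS2. Under siPARP1 the opposite count was 5 in KO and 6 in WT cells, and the same-direction count 2 in each, HARS1 with HARS2 and IARS1 with IARS2. The cytosolic gene had the lower log2 change in 13 of 16 pairs in KO and 14 in WT cells under olaparib, and in 11 pairs in KO and 12 in WT cells under siPARP1. With olaparib set against siPARP1 directly, same-direction pairs were more numerous, 5 against 2 opposite in KO and 5 against 3 in WT cells. Both EPRS1 pairs are among the opposite ones under olaparib, so that gene counts in each. Pairs share libraries, were not set against other gene pairs and were not tested as a set.

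Set against siPARP1 directly, olaparib left most cytosolic synthetases lower. Of 34 members, 6 were higher and 16 lower in KO cells (of all genes 52.2% were called, 22.4% higher and 29.7% lower), and 4 were higher and 19 lower in WT cells (of all genes 51.7%, 23.4% higher and 28.3% lower). After rescaling to TPM the WT counts were 6 higher and 16 lower. In the cytosolic set 11 were lower and 2 higher in KO cells, and 13 lower and 0 higher in WT cells. The treatments also differ in duration and in the use of a transfection reagent, and those cannot be told apart from the agent. Log2 differences were -1.33 in KO and -0.86 in WT cells for GARS1, -0.98 in KO and -0.95 in WT cells for WARS1, -0.96 in KO and -0.88 in WT cells for AARS1, and -0.74 in KO and -0.78 in WT cells for MARS1. WARS2 was higher under olaparib by 1.41 in KO and 1.48 in WT cells, and IARS2 by 0.46 in KO and 0.45 in WT cells. HARS2 was lower under olaparib, with log2 differences of -0.53 in KO and -0.94 in WT cells, and MARS2 with -0.44 in KO and -0.72 in WT cells. LARS1 and LARS2 were higher under olaparib in KO cells (0.37 and 0.36). The LARS1 call there was lost without KO olaparib library 3 or KO siPARP1 library 3 (adjusted p = 0.0635 and 0.0533). The LARS2 call was lost without KO olaparib library 1 (adjusted p = 0.0828) or 2 (0.0837) or KO siPARP1 library 1 (0.0558).

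KO and WT cells differed at few synthetases. In untreated cells 3 members were higher and 3 lower in KO, or 6 of 34, against 20.5% of all genes (9.58% higher and 10.9% lower). Under olaparib 4 were higher and 1 lower, against 12.8% of all genes (5.68% higher and 7.16% lower). Under siPARP1 3 were higher and 5 lower, against 23.1% of all genes (11.8% higher and 11.2% lower). After rescaling to TPM the counts were 5 higher and 3 lower without treatment and 3 higher and 3 lower under siPARP1. In each condition the members' share was near that of all genes. In none of the 3 conditions were both genes of a cytosolic and mitochondrial pair called.

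QARS1 was the member called in all 3 conditions. It had 77.0, 78.0 and 69.2 FPKM in KO and 56.8, 60.6 and 58.8 FPKM in WT cells under olaparib. Under siPARP1 it had 96.3, 95.9 and 94.9 FPKM in KO and 64.0, 69.1 and 63.7 FPKM in WT cells, and without treatment 77.6, 82.1 and 73.7 FPKM in KO and 58.2, 61.5 and 61.9 FPKM in WT cells. The genotypes did not overlap in any condition, with log2 differences of 0.34 under olaparib, 0.54 under siPARP1 and 0.36 without treatment. QARS1 lies on chromosome 3 at 49095932 to 49105135, and the 114 genes tested between 40 and 50 Mb of that chromosome shifted together, by a median of 0.25 under olaparib, 0.32 under siPARP1 and 0.25 without treatment. With the median of each 10 Mb bin removed, the QARS1 difference was 0.09 under olaparib (adjusted p = 0.388) and 0.11 without treatment (adjusted p = 0.211), and the call under siPARP1 remained. LARS2, the mitochondrial leucine enzyme, lies in the same bin. It had 16.2, 16.3 and 12.02 FPKM in KO and 10.7, 9.76 and 9.59 FPKM in WT cells under olaparib (log2 difference 0.52), and 0.27 with the bin median removed (adjusted p = 0.22). Whether copy number differs there was not tested.

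**Figure D5:**
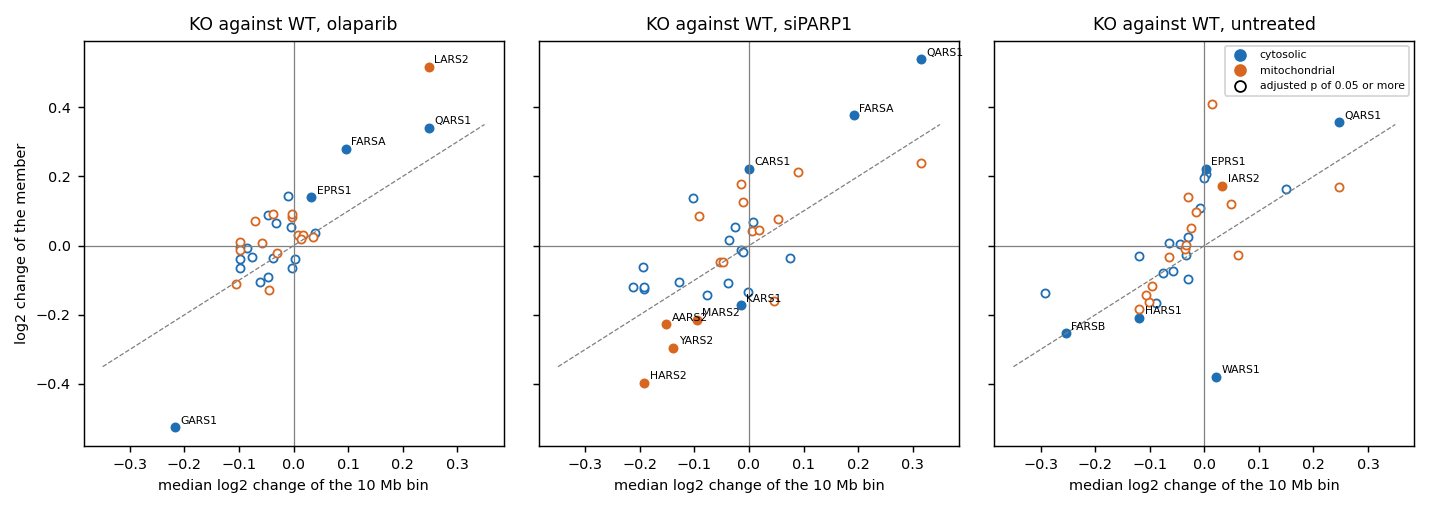
Log2 difference between KO and WT cells of each tested member (vertical) against the median difference of the genes in its 10 Mb bin of the genome (horizontal), under olaparib, under siPARP1 and without treatment; blue is cytosolic, orange mitochondrial, filled symbols were called and the dashed line marks equality. QARS1 and LARS2 lie to the right, FARSB, GARS1 and HARS2 to the left, and WARS1 lies low in untreated cells with its bin near 0.

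Other differences in untreated cells were WARS1, lower in KO (-0.38, adjusted p = 0.000305), EPRS1 and IARS2, higher in KO (0.22 and 0.17), and FARSB and HARS1, lower in KO (-0.25 and -0.21). The bin medians were 0.02 for WARS1, 0.003 for EPRS1 and 0.03 for IARS2, and these calls remained with the bins removed. FARSB lies in a bin of 25 tested genes and is itself the gene at the bin's median of -0.25, so removing the median left it at 0. The other genes of that bin also had a median of -0.25. The HARS1 call was lost with the bins removed (adjusted p = 0.343) and without KO untreated library 1 (0.054) or WT untreated library 1 (0.0687). Under olaparib FARSA was higher in KO by 0.28 and GARS1 had a log2 difference of -0.52, with 31.2, 36.8 and 42.4 FPKM in KO and 51.4, 53.5 and 54.0 FPKM in WT cells. Both calls were near the threshold. Leaving out olaparib library 1 or 2 of either genotype left FARSA at 0.26 to 0.27 (adjusted p 0.0502 to 0.0554), and leaving out any WT olaparib library or KO olaparib library 1 or 2 left GARS1 at -0.55 to -0.41 (0.0753 to 0.148). EPRS1 was higher in KO by 0.14 under olaparib, a call lost without WT olaparib library 2 or 3 or KO olaparib library 2 or 3 (adjusted p 0.0622 to 0.112).

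Under siPARP1 the members lower in KO were HARS2 (-0.40), YARS2 (-0.30), AARS2 (-0.23), MARS2 (-0.22) and KARS1 (-0.17), and FARSA and CARS1 were higher (0.38 and 0.22). Bin medians were -0.19 for HARS2, -0.14 for YARS2, -0.15 for AARS2, -0.10 for MARS2, -0.01 for KARS1, 0.19 for FARSA and -0.001 for CARS1. ZMAT2, which overlaps HARS2, was also lower in KO under siPARP1 (-0.47). DNM1L, which overlaps YARS2 on the opposite strand, had a difference of -0.21 (adjusted p = 0.189). With bins removed, HARS2 had an adjusted p of 0.128, YARS2 of 0.0764, AARS2 of 0.565, MARS2 of 0.304 and FARSA of 0.0883. The MARS2 call was also lost without any 1 of the 6 libraries (adjusted p 0.0635 to 0.109). The AARS2 call was lost without WT siPARP1 library 2 or 3 or any KO siPARP1 library (0.0582 to 0.112), the KARS1 call without library 1 or 3 of either genotype (0.0572 to 0.0697), and the CARS1 call without WT siPARP1 library 1 or KO siPARP1 library 1 or 3 (0.052 to 0.143).

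The test of whether the genotypes responded differently called none of the 34 members for olaparib and 2 for siPARP1, against 3.06% of all genes for olaparib (1.40% higher and 1.66% lower) and 5.26% for siPARP1 (2.74% higher and 2.52% lower). For olaparib, limma gave 5 members an unadjusted p under 0.05, FARSB with the smallest adjusted p (0.0534), and the fit with no filter on low values also called 0. A dependence of the olaparib response on TRIM27 was not shown for any member. For siPARP1 the 2 members were WARS1, which rose more in KO cells, and YARS2. In KO cells YARS2 had 14.7, 14.52 and 15.5 FPKM under siPARP1, against 14.7, 16.0 and 14.8 FPKM without treatment, which overlap. In WT cells it rose, with 18.5, 18.4 and 18.7 FPKM under siPARP1, against 14.9, 16.1 and 14.49 FPKM without treatment. In WARS1 the KO and WT libraries overlapped under siPARP1 and differed without treatment.

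Most genes of an ATF4 pathway list fell with the cytosolic synthetases, and part of the list, unlike most synthetases, responded differently by genotype. The list holds ATF4 and known targets for amino acid synthesis, transport and stress, without any synthetase, and was chosen with results of these data known. It does not hold every target. PPP1R15A, a stress-response gene given below with the eIF2 phosphatase subunits, is not in it. That gene rose under olaparib (0.70 in KO and 0.50 in WT cells) and under siPARP1 (0.74 in KO and 0.25 in WT cells). Of 23 genes tested, 22 fell and 0 rose under olaparib in KO cells (median log2 change -1.15), where 22% of all genes fell and 25.2% rose. In WT cells 21 fell and 2 rose (median -0.96), where 20.4% of all genes fell and 24.9% rose. Under siPARP1 17 fell and 2 rose in KO cells (median -0.51), where 22.8% of all genes fell and 31.9% rose. In WT cells 14 fell and 3 rose (median -0.40), where 22.3% of all genes fell and 29.5% rose. ASNS, asparagine synthetase, averaged 18.4 ± 1.7 FPKM in KO and 23.3 ± 3.4 FPKM in WT cells under olaparib, and 28.4 ± 10.0 FPKM in KO and 40.2 ± 6.4 FPKM in WT cells under siPARP1, against 109.5 ± 22.2 FPKM in KO and 91.7 ± 7.2 FPKM in WT untreated cells (SD, n = 3 each). MTHFD2, a mitochondrial folate enzyme, and DDIT4, an inhibitor of mTORC1, had log2 changes under olaparib of -1.86 and -3.40 in KO cells and of -1.80 and -2.43 in WT cells. ATF4 itself had changes of -1.67 in KO and -1.04 in WT cells under olaparib, and of -0.56 in KO cells (adjusted p = 0.0194) and -0.40 in WT cells (adjusted p = 0.0893) under siPARP1. ATF4 is controlled mainly at translation, which RNA levels do not measure. In the test of whether the genotypes responded differently, 7 of the 23 genes had a lower change in KO cells for olaparib and 0 a higher one. For siPARP1 8 had a lower change and 0 a higher one. Of all genes, 1.66% were lower and 1.4% higher for olaparib, and 2.52% and 2.74% for siPARP1. The same test called 0 of 34 synthetases for olaparib and 2 for siPARP1.

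Of 6 eIF2 kinases and phosphatase subunits, PPP1R15A, the inducible subunit that reverses eIF2 phosphorylation, rose in all 4 treatment comparisons. Its log2 change was 0.70 in KO and 0.50 in WT cells under olaparib, and 0.74 in KO and 0.25 in WT cells under siPARP1. EIF2AK2 (PKR) fell in all 4, with log2 changes of -0.41 in KO and -0.38 in WT cells under olaparib and -0.67 in KO and -0.76 in WT cells under siPARP1. EIF2AK3 fell under olaparib (-0.32 in KO and -0.50 in WT cells). Under siPARP1 EIF2AK3 rose in KO cells (0.52) and had a change of 0.02 in WT cells (adjusted p = 0.883). EIF2AK4 fell under siPARP1 (-0.27 in KO and -0.21 in WT cells) and was not called under olaparib. EIF2AK1 fell in all but olaparib-treated WT cells, and PPP1R15B was not called after either treatment. Among 5 cytosolic elongation factors, EEF2 and EEF1A1, which takes charged tRNA to the ribosome, fell under olaparib (log2 changes -0.77 and -0.48 in KO and -0.64 and -0.40 in WT cells). EEF1D rose under olaparib in both genotypes (0.27 in each) and EEF1B2 fell in WT cells (-0.20). Under siPARP1 EEF2 and EEF1A1 had log2 changes of -0.12 and -0.14 in KO and -0.20 and -0.14 in WT cells, all called, and EEF1B2, EEF1D and EEF1G did not pass the test.

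Factors that work beside mitochondrial synthetases were more often called higher than lower, as were all genes on the deposited scale. Of 18 genes for mitochondrial translation and tRNA maturation, 7 rose and 1 fell under olaparib in KO cells (of all genes 25.2% rose and 22% fell), and 8 rose and 1 fell in WT cells (24.9% and 20.4%). Under siPARP1 11 rose and 0 fell in KO cells (of all genes 31.9% rose and 22.8% fell), and 10 rose and 0 fell in WT cells (29.5% and 22.3%). After rescaling to TPM, where all genes called under either treatment were more often lower, 4 rose and 1 fell under olaparib in KO and 7 rose and 2 fell in WT cells, and 6 rose and 1 fell under siPARP1 in KO and 8 rose and 2 fell in WT cells. TUFM, the mitochondrial elongation factor that carries charged tRNA, averaged 86.6 ± 13.7 FPKM in KO and 84.9 ± 1.9 FPKM in WT cells under olaparib, and 86.8 ± 11.6 FPKM in KO and 101.7 ± 16.1 FPKM in WT cells under siPARP1, against 66.0 ± 0.8 FPKM in KO and 64.1 ± 2.7 FPKM in WT untreated cells (SD, n = 3 each). HSD17B10, a subunit of mitochondrial RNase P, rose under siPARP1 by 0.60 in KO and 0.51 in WT cells, and ELAC2, which trims tRNA 3′ ends, by 0.51 in KO and 0.43 in WT cells.

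FARS2, NARS2 and SARS2, the mitochondrial phenylalanine, asparagine and serine enzymes, were called in none of the 11 comparisons and had means of 8.98, 8.67 and 4.13 FPKM over the 18 libraries. NARS2 had a change of -0.41 ± 0.17 (SE) under siPARP1 in WT cells (adjusted p = 0.0534). In WT cells SARS2 had log2 differences of 0.43 ± 0.19 with olaparib (adjusted p = 0.0863) and 0.44 ± 0.19 with siPARP1 (adjusted p = 0.0708), which were not told apart from the spread between libraries. RARS2 fell under olaparib in WT cells (-0.16), a call lost without WT untreated library 1 or 3 or WT olaparib library 3 (adjusted p 0.067 to 0.0757). LARS2 rose under olaparib in KO cells by 0.49, although its treated and untreated libraries overlapped, and had a change of 0.14 in WT cells (adjusted p = 0.355).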

How the data were processed

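RNA of 18 libraries in 6 groups of 3 was measured by poly-A RNA-seq of MDA-MB-231 cells. Per the submitters' processing notes, build GRCh38 was used with DESeq2 1.38.3, StringTie 2.2.1, featureCounts 2.0.3, HISAT2 2.2.1 and fastp 0.23.2. No source used here says which of them made the values, or with which annotation and strand setting. The deposited values are FPKM per gene and per transcript, as made by the authors, for 62830 genes, of which 970 are unnamed loci with 43.4% to 49.8% of the summed FPKM per library. FPKM holds no counts, so depth is unknown and no counting interval is given. Symbols were matched by Ensembl identifier, and positions are from GENCODE 29.

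Genes reaching 1 FPKM in 3 or more libraries were tested on log2(FPKM + 1), which understates changes of low genes, with limma 3.58.1 (R 4.3.3) with a mean-variance trend in 1 fit of 6 group means (12 residual degrees of freedom). The 11 contrasts were adjusted by Benjamini-Hochberg over 15764 genes and called at an adjusted p under 0.05; all adjusted p-values in the text come from this fit or its alternatives. The code was tested on simulated data first. Groups were taken from the sample labels. Figures and tables used Python 3.11.15, pandas 2.3.3 and matplotlib 3.10.9.

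Alternatives were a pseudocount of 0.1, no filter (41488 genes), TPM and median-of-ratios scaling, fits of the compared groups, a replicate block, summed transcripts, each library left out, and, for KO against WT, 10 Mb bin medians (at least 10 genes) removed. Members with per-library values are up to 5 rises and 5 falls per comparison, with no overlap and 5 FPKM or more on average in the group with the higher values, their partners, interaction calls and members in shifted chromosome segments. List examples were mostly chosen by the largest change, with ATF4 and TUFM added. ISG15 and IFI35 were named as the interferon-induced genes that rose under siPARP1. The whole set of members was fixed by name. The members given per-library values and the lists were chosen with earlier results of these data known.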

Additional observations from a re-analysis of the deposited data

Results flagged for a closer look

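For 2 members the response to siPARP1 differed between KO and WT cells by the test of the difference itself. WARS1 rose by 0.70 in KO and 0.35 in WT cells on the log2 scale, a difference of 0.34 ± 0.08 (SE, adjusted p = 0.0265). The WARS1 libraries of KO and WT cells overlapped under siPARP1 (56.9 ± 1.4 FPKM in KO and 58.5 ± 3.8 FPKM in WT, SD, n = 3 each) and not without treatment (34.7 ± 0.7 FPKM in KO and 45.5 ± 1.4 FPKM in WT). Leaving out any 1 of 6 of the 12 libraries, named by group as WT untreated 1 and 3, KO untreated 3, WT siPARP1 1 and 3 and KO siPARP1 2, gave adjusted p of 0.0555 to 0.0651.

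YARS2 had a log2 change of -0.02 in KO and 0.28 in WT cells, a difference of -0.30 ± 0.08 (SE, adjusted p = 0.0443). Leaving out a single library ended that call for 11 of the 12 libraries, WT untreated library 2 being the exception (adjusted p 0.0506 to 0.105), as did the fits with no filter on low values (0.0735), of the compared groups alone (0.0651) and with the replicate block (0.0714). YARS2 shares about 18160 bases with DNM1L on the opposite strand and 731 bases with a gene on its own strand. Reads there cannot be assigned to 1 gene with certainty. DNM1L had log2 changes under siPARP1 of -0.06 in KO cells (adjusted p = 0.665) and 0.20 in WT cells (adjusted p = 0.13).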

How the results depend on the processing

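The counts of members called kept within 1.5 times of the reported ones under every alternative run, except as follows. With 10 Mb bin medians removed, KO against WT called 0 members under olaparib, 3 under siPARP1 and 3 without treatment, against 5, 8 and 6 as reported. Fitting only the compared groups gave 3 under olaparib, and dropping the filter gave 5 under siPARP1. The siPARP1 response called 1 member differing by genotype, against 2, with no filter, with only the compared groups and with the replicate block, and the olaparib response called 2, against 0, from summed transcripts.

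With 1 library left out at a time, KO against WT called 2 to 4 members under olaparib, 4 to 7 under siPARP1 and 6 to 8 without treatment. Olaparib against untreated called 19 to 21 in KO and 21 to 22 in WT cells, siPARP1 against untreated 19 to 22 in KO and 18 to 23 in WT cells, and olaparib against siPARP1 19 to 21 in KO and 21 to 23 in WT cells. The genotype differences in response called 0 to 1 for olaparib and 0 to 2 for siPARP1.

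Summed transcripts reversed GARS1 in KO against WT under olaparib (1.01, adjusted p = 0.412) and LARS1 in olaparib against siPARP1 in KO cells (-0.0599, adjusted p = 0.88). The listed transcripts held 10.1% of the GARS1 and 43.7% of the LARS1 gene value, so these sums miss much of both genes. They also ended the GARS1 fall under olaparib in KO cells (-1.08, adjusted p = 0.216) and under siPARP1 in WT cells (-1.15, adjusted p = 0.179). The GARS1 call in olaparib against siPARP1 in KO cells ended too (-0.64, adjusted p = 0.467). So did the LARS1 falls in WT cells under olaparib (-0.23, adjusted p = 0.552) and siPARP1 (-0.405, adjusted p = 0.257). Calls were likewise lost for AARS1, HARS1, IARS1 and YARS1, whose listed transcripts held 6.23%, 63.5%, 8.83% and 72.4% of the gene value. The AARS1 fall under siPARP1 in WT cells came to -0.002 (adjusted p = 0.997) and the IARS1 fall in KO cells to -0.21 (0.753), against -0.80 and -0.56 as reported. Rescaling to TPM moved the median change of all genes under siPARP1 by -0.107 in KO and -0.1 in WT cells. All genes were called 3854 higher and 4915 lower in KO cells on that scale, against 5034 and 3588 as deposited, and 3501 higher and 4590 lower in WT cells, against 4649 and 3508. Median-of-ratios scaling gave 4186 higher and 4272 lower in KO and 3850 and 4128 in WT cells.

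No strong pairing of libraries by replicate number was seen, and the values below cannot exclude a weak one. The 27 correlations of same-numbered libraries' deviations ran from -0.0632 to 0.0738, and 10 of 18 libraries correlated best with their own number. The replicate block moved no count of calls other than the one above by more than 1.5 times.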
